A study of Mus musculus with 10 samples.

Results

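The genes described here are the cell cycle genes expressed in mouse liver, taken from the KEGG pathway term Cell cycle as the deposited table pairs it with genes. Of 55401 genes in the table, 123 carried the term. A gene was kept where its mean over the 10 libraries was at least 0.5 FPKM (fragments scaled to transcript length and to library size), which left 81 members. Of the other genes of the term, 38 were below that level, 3 also carried the term for protein processing in the endoplasmic reticulum, and 1, Tgfb1, was left out by name. The rule used the mean level and no difference between the genotypes.

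Liver RNA came from 5 mice labelled NIKflox and 5 labelled NIKhKO. For 4 weeks both groups had been fed a Lieber-DeCarli liquid diet containing 5% ethanol, so ethanol was shared by both groups, and no group without it was analysed here. NIK is the NF-kB inducing kinase, encoded by Map3k14, which starts the non-canonical NF-kB pathway. What hKO abbreviates is not spelled out, though the title of the study names hepatic NIK. The part of the gene that the allele removes, the driver of any recombinase, and the sex, age and hour of tissue collection are not stated for these mice. Nothing in the labels ties the libraries to separate litters, and p-values therefore cover only the spread among these samples, which may be technical in part. In whole liver, fewer cells of a type and less RNA per cell cannot be told apart.

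The cell cycle runs on cyclin-dependent kinases (CDKs), which are switched on by cyclins and held back by inhibitor proteins. In G1 the kinases release E2F factors from the retinoblastoma proteins, replication origins are licensed by the ORC and MCM complexes, and the anaphase-promoting complex later destroys cyclins and lets mitosis finish. Most adult hepatocytes rest outside the cycle and many are polyploid, so genes of S phase and mitosis are usually read at low levels in adult liver.

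Promoters of 6 members are shown. Ccnb2, Cdc20, Mcm5 and Mcm6 stand for replication and mitosis genes that were high or low in the same libraries, and Gadd45b and Gadd45g for members whose genotype ranges did not overlap. The sequences are from RefSeq on the build GRCm38.p6, 5′ to 3′ on the strand of the gene, from 200 bases before the annotated start. Capitals mark matches, on either strand, to 6 motifs. These are TTTGAA and TTCGAA (the cell cycle genes homology region, CHR), CCAAT (the NF-Y box), TTTCGCGC and TTTGGCGC (E2F) and CACGTG (the E-box that clock factors and Myc bind). The Ccnb2 stretch is chr9:70421555-70421754 on the minus strand, that of Cdc20 chr4:118437353-118437543 on the minus strand and that of Mcm5 chr8:75109309-75109508 on the plus strand. The Mcm6 stretch is chr1:128359706-128359905 on the minus strand, that of Gadd45b chr10:80929891-80930072 on the plus strand and that of Gadd45g chr13:51846475-51846674 on the plus strand. Those of Cdc20 and Gadd45b stop 9 and 18 bases before the start, where an annotated transcript already runs.
Ccnb2: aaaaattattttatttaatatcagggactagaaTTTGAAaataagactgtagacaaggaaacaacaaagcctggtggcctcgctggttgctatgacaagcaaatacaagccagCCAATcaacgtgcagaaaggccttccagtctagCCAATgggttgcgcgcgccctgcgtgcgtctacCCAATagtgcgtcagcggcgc
Cdc20: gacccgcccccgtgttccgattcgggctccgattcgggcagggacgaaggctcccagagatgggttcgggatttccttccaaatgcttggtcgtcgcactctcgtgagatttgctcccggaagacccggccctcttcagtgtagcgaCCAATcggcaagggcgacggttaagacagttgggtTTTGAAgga
Mcm5: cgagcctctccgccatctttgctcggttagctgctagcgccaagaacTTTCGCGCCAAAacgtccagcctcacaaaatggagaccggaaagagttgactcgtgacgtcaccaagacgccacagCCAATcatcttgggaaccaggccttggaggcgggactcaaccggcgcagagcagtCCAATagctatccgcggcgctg
Mcm6: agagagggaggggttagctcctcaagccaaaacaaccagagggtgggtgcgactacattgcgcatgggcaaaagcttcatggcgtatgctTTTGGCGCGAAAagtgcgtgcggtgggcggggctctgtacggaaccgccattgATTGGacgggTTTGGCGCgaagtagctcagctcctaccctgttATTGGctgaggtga
Gadd45b: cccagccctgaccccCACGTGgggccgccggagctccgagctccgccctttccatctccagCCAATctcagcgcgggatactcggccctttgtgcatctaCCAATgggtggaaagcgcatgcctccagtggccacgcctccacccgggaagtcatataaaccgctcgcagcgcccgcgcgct
Gadd45g: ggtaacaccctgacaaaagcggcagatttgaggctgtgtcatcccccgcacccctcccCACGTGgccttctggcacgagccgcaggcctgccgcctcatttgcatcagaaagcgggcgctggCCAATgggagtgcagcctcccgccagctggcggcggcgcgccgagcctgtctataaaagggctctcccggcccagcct

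In Ccnb2, 3 CCAAT boxes began 87, 54 and 21 bases before the start, and a TTTGAA 167 bases before it. Another TTTGAA of Ccnb2 began 4 bases after the start, outside the printed stretch. Cdc20 held CCAAT at 53 bases before the start and TTTGAA at 18 bases before the start. It held another CCAAT at 8 bases before the start, outside the printed stretch. In Mcm5 a TTTCGCGC at 153 bases overlapped a reverse TTTGGCGC at 149 bases, and in Mcm6 a TTTGGCGC at 110 bases overlapped a reverse TTTCGCGC at 106 bases, so each pair shares bases. Mcm6 held another TTTGGCGC at 47 bases. Gadd45b and Gadd45g each held 1 CACGTG, at 185 and 142 bases before the start, and both also held CCAAT. A match describes letters and shows no binding.

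Of the 81 members, 63 had a promoter in the RefSeq table, searched from 250 bases before to 50 after each annotated start. The 18 others were Ccnd1, Ccnd2, Ccnh, Cdc23, Cdkn1c, E2f4, E2f5, Hdac1, Mcm4, Myc, Rad21, Rb1, Smad2, Smad4, Stag2, Wee1, Ywhab and Ywhaz. CCAAT was present in 57.1% of the matched members, against 42.7% of the tested genes in the table and 41.1% of all its 27025 genes. TTTCGCGC was found in 4 members (6.35%), Mcm5, Mcm6, Mcm7 and Tfdp1, against 0.760% of tested genes and 0.374% of all genes. TTTGGCGC was also found in 4 members (6.35%), E2f2, Mcm3, Mcm5 and Mcm6, against 1.08% of tested genes and 0.585% of all genes. TTTGAA was in 14.3% of the members, 14.3% of tested genes and 20.2% of all genes, and TTCGAA in 4.76%, 2.30% and 1.80%. CACGTG was in 12 members, a share of 19.0%, against 12.0% of tested genes and 8.09% of all genes. These shares were not tested.

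**Figure D1:**
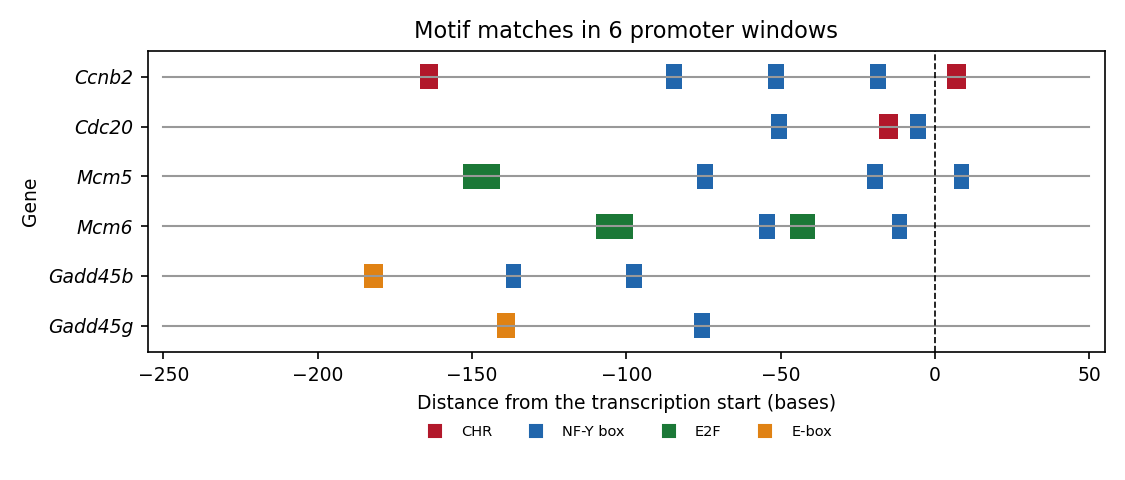
Position of each motif match in the promoter windows of 6 members, as distance in bases from the annotated start (x axis), with 1 line per gene and a marker for each kind of motif. Ccnb2 has 3 CCAAT boxes within 87 bases of the start, and the overlapping E2F matches of Mcm5 and Mcm6 begin 153 to 106 bases before it. Matches after the start are drawn too, outside the printed stretches.

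The median member had a mean level of 2.55 FPKM over the 10 livers. Of the 81, 10 had a mean over 10 FPKM, 9 lay from 5 to 10, 52 from 1 to 5 and 10 from 0.5 to 1 FPKM. The highest was Ywhae, a 14-3-3 adaptor gene with many roles outside the cycle, at 71.8 ± 6.49 in NIKflox against 67.2 ± 4.46 FPKM in NIKhKO (SD, n = 5 per genotype). Ccnd1, the cyclin D1 gene of G1 entry, was the highest of the cyclins at a mean of 17.4 FPKM. Pcna, the sliding clamp of DNA polymerase, was the highest of the replication genes at 11.0 FPKM. Just inside the threshold were E2f2 (0.563 FPKM), Anapc10 (0.605 FPKM) and Mcm2 (0.624 FPKM), and just outside it Ccna2 (0.488 FPKM), Tgfb3 (0.442 FPKM) and Mad2l1 (0.430 FPKM).

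**Figure D2:**
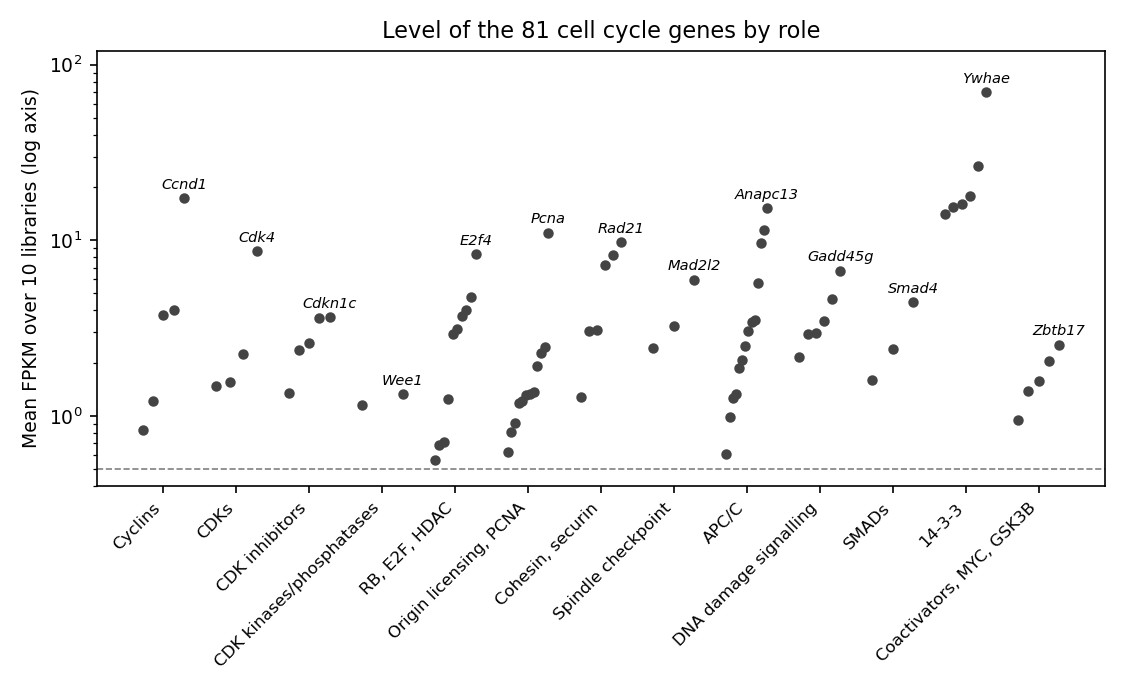
Mean FPKM over 10 libraries of each of the 81 members (points, log axis), by role, with the threshold of 0.5 FPKM as a dashed line. The 14-3-3 genes lie between 14.1 and 69.5 FPKM, and the replication group holds Pcna at 11.0 FPKM above MCM and ORC genes between 0.624 and 2.46 FPKM.

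The comparison of the genotypes asks how livers labelled NIKhKO differ from those labelled NIKflox under ethanol. Map3k14, the targeted gene, read 0.553, 0.510, 0.585, 0.899 and 0.483 FPKM in NIKflox 1 to 5 and 0.347, 0.361, 0.443, 0.389 and 0.373 FPKM in NIKhKO 1 to 5. The 5 NIKhKO libraries lay below the 5 NIKflox libraries (exact two-sided permutation p = 0.0079, the smallest that 252 arrangements allow, and 0.032 adjusted over the 4 genes tested that way). Across all genes it was not called, at a log2 fold change of −0.59 (SE 0.19, edgeR adjusted p = 0.33, DESeq2 adjusted p = 0.13). Total estimated counts ran from 47161869 to 65052525 per library, correlations between libraries from 0.957 to 0.982 (log2(FPKM + 1)), and mitochondrial transcripts took 7.15% to 12.7% of counts. Summed hepatocyte markers ran from 39691 to 54476 FPKM in NIKflox and from 43062 to 50382 FPKM in NIKhKO, and none of the 9 was at 0. NIKflox 2 and NIKflox 4 stood apart, with heart muscle markers at 6.89 and 30.9 FPKM in sum, while the 8 remaining libraries had 0.116 to 0.958 FPKM. NIKflox 2 also had adipose markers at 29.4 FPKM, against 3.17 to 4.77 FPKM elsewhere, and stellate cell markers at 90.7 FPKM, against 36.9 to 60.7 FPKM.

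Between the genotypes, the members with the smallest p-values were 2 CDK inhibitors and 2 stress genes, of which Cdkn1a, Gadd45b and Gadd45g were lower and Cdkn1c higher in NIKhKO. None passed the main test. In edgeR's quasi-likelihood test, adjusted over the 12731 genes tested, 0 of 81 members were called at an adjusted p below 0.05 (background 0.0236% of genes, 3 in all), and the smallest adjusted p of a member was 0.26. DESeq2 called 3 of the members, Cdkn1a, Cdkn1c and Gadd45g (3.70%, background 1.63%). At an unadjusted p below 0.05, 3 members were higher in NIKhKO, Cdkn1c, Pcna and Cdkn2c (3.70%, background 4.85%), and 7 were lower, Gadd45g, Cdkn1a, Gadd45b, Ccnd2, Mad2l2, E2f4 and Cdc14b (8.64%, background 5.14%). FPKM ranges were apart for 0 members with higher levels in NIKhKO (background 0.605%) and for 4 with lower levels, Gadd45g, Gadd45b, E2f4 and Ywhaq (4.94%, background 1.59%).

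Most fitted differences were small. The median log2 fold change, NIKhKO minus NIKflox, was 0.02 for the members and −0.01 for all genes tested. A positive fold change was fitted for 46 of 81 members (56.8%, background 48.2%). On log2(FPKM + 1), limma gave 34 positive members and a median of −0.03, against −0.05 for all genes. In both fits the median of the members lay above that of all genes. For 11 of 81 members, such as Ccnh, Cdkn1b and Trp53, the FPKM means and the edgeR fold change differed in sign. In 58 members (71.6%) the log2 fold change was within 0.2 of 0, against 63.2% of all genes tested, and the median standard error of a member was 0.15.

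**Figure D3:**
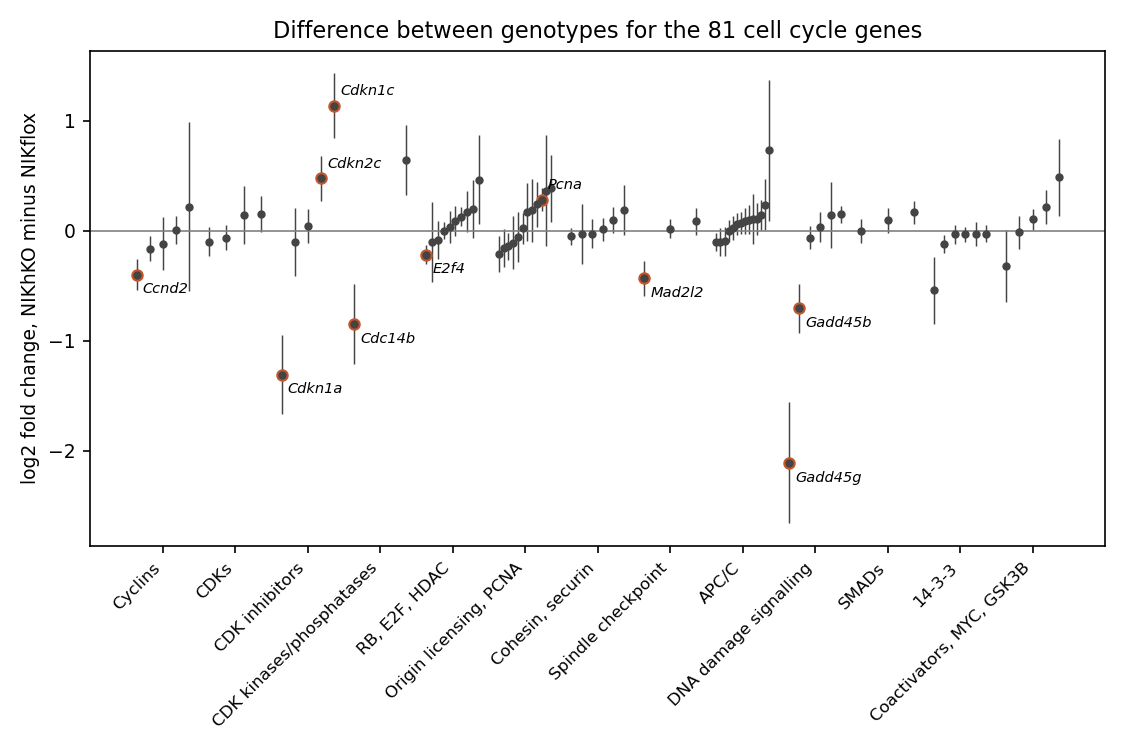
Fitted log2 fold change (NIKhKO minus NIKflox, edgeR) of each of the 81 members by role, with bars of 1 standard error on each side. Gadd45g (−2.11), Cdkn1a (−1.31) and Cdkn1c (1.14) lie beyond 1 in size, and 58 members lie within 0.2 of 0.

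Cyclins, the activating subunits, had 2 of 5 positive fold changes and a median of −0.12, which was 0.01 without NIKflox 2. Ccnd1 read 16.3, 24.4, 14.8, 13.2 and 23.6 FPKM in NIKflox 1 to 5 and 10.8, 21.9, 13.3, 14.4 and 21.7 FPKM in NIKhKO 1 to 5. In each genotype 2 libraries read over 20 FPKM and the others under 17 FPKM, and the ranges overlapped. The means were 18.5 ± 5.21 and 16.4 ± 5.07 FPKM (SD, n = 5 per genotype; exact permutation p = 0.52, adjusted p = 0.69 over 4 genes), and the log2 fold change of −0.12 had an approximate 95% interval of −0.59 to 0.35. Ccnd2, another D-type cyclin, read 1.14, 1.75, 1.29, 1.53 and 1.38 FPKM in NIKflox 1 to 5 and 0.987, 0.922, 1.15, 1.17 and 0.905 FPKM in NIKhKO 1 to 5. NIKflox 1 lay among the NIKhKO libraries and the other NIKflox libraries above them, with a log2 fold change of −0.40 (SE 0.14, edgeR adjusted p = 0.37). Ccnd3 read 4.33 ± 0.743 and 3.70 ± 0.518 FPKM, and Ccnh, a subunit of the CDK-activating kinase, 3.82 ± 0.389 and 3.67 ± 0.496 FPKM, NIKflox first (SD, n = 5 per genotype). The fitted log2 fold change of Ccnh was 0.0068, opposite in sign to the difference of its FPKM means. Ccnb2, the mitotic cyclin B2, is described with the mitotic genes.

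The 4 kinases had fold changes from −0.10 for Cdk4 to 0.15 for Cdk6, with 2 positive. Cdk4, a partner of the D-type cyclins, read 9.13 ± 1.18 in NIKflox against 8.16 ± 1.51 FPKM in NIKhKO, and Cdk6, the other such partner, 1.43 ± 0.392 and 1.52 ± 0.205 FPKM (SD, n = 5 per genotype). Cdk2, the partner of cyclins E and A, had an interval of −0.37 to 0.67, and Cdk7, the CDK-activating kinase, one of −0.28 to 0.16. Of the enzymes that set the phosphorylation of CDKs or their targets, the phosphatase gene Cdc14b read 1.51 ± 0.507 and 0.806 ± 0.450 FPKM (SD, n = 5 per genotype; log2 fold change −0.85, SE 0.36, edgeR adjusted p = 0.47). NIKflox 5, at 0.653 FPKM, was low among the NIKflox libraries, and NIKhKO 2, at 1.54 FPKM, was high among the NIKhKO libraries.

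Wee1, the kinase that holds mitosis back and a known target of the circadian clock in liver, read 0.878, 1.49, 1.16, 1.08 and 0.728 FPKM in NIKflox 1 to 5 and 1.42, 2.22, 1.22, 0.690 and 2.44 FPKM in NIKhKO 1 to 5. NIKhKO 4 was the lowest of the 10 libraries, and NIKhKO 2 and 5 were the highest. Its log2 fold change was 0.64 (SE 0.32, edgeR adjusted p = 0.55). Of 13 clock genes tested, 5 were higher (38.5%, background 4.85%) and 2 lower (15.4%, background 5.14%) in NIKhKO at an unadjusted p below 0.05. Of these 13, edgeR called 0 and DESeq2 called 1 (7.69%, background 1.63%). Nr1d1, the nuclear receptor REV-ERB alpha, read 7.45, 13.0, 15.2, 6.72 and 9.14 FPKM in NIKflox 1 to 5 and 21.1, 21.0, 26.5, 17.3 and 15.5 FPKM in NIKhKO 1 to 5, with no overlap (log2 fold change 1.04, SE 0.24, edgeR adjusted p = 0.23). Dbp, a clock output factor, had a log2 fold change of 2.13 (SE 0.61), and Nr1d2, the paralog of Nr1d1, one of 0.72 (SE 0.27). The part of these clock differences in the values of Wee1 was not tested.

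CDK inhibitors held both directions. Cdkn1a, the p21 gene and a main target of p53 (ENSMUSG00000023067, chromosome 17, 29090976 to 29100727), read 4.30, 5.95, 1.302, 3.56 and 3.59 FPKM in NIKflox 1 to 5 and 1.17, 0.988, 1.80, 2.05 and 1.23 FPKM in NIKhKO 1 to 5. The NIKhKO libraries lay at or below 2.05 FPKM, and NIKflox 3 lay among them, while the other 4 NIKflox libraries were higher. The means were 3.74 ± 1.67 and 1.45 ± 0.456 FPKM (SD, n = 5 per genotype; exact permutation p = 0.024, adjusted p = 0.048 over 4 genes). The 4 include the targeted gene Map3k14, whose small p lowers this adjusted value. The choice of tests was also made with earlier results of these data known. In edgeR its log2 fold change was −1.31 (SE 0.36, adjusted p = 0.26), and in DESeq2 the adjusted p was 0.021. Leaving out 1 library left the fold change between −1.52 and −1.07. The adjusted permutation p was then 0.032 without NIKflox 3 and 0.063 to 0.095 without any other library, where 126 arrangements allow no unadjusted p below 0.016.

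Cdkn1c, the imprinted p57 gene (ENSMUSG00000037664, chromosome 7, 143458339 to 143461050), read 2.02, 1.901, 2.93, 3.24 and 1.57 FPKM in NIKflox 1 to 5 and 8.85, 5.44, 2.87, 3.30 and 4.25 FPKM in NIKhKO 1 to 5. NIKhKO 1 was the highest library, and NIKhKO 3 lay within the NIKflox range. The log2 fold change was 1.14 (SE 0.29, edgeR adjusted p = 0.26, DESeq2 adjusted p = 0.016), and leaving out 1 library left it between 0.83 and 1.27. Cdkn2c, an inhibitor of CDK4 and CDK6, read 2.04 ± 0.625 and 2.72 ± 0.395 FPKM (SD, n = 5 per genotype), and its log2 fold change was 0.48 (SE 0.20, edgeR adjusted p = 0.47). Cdkn1b, the p27 gene, read 3.65 ± 0.568 and 3.58 ± 0.525 FPKM, and Cdkn2d, another inhibitor of CDK4 and CDK6, 1.44 ± 0.440 and 1.28 ± 0.450 FPKM (SD, n = 5 per genotype).

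**Figure D4:**
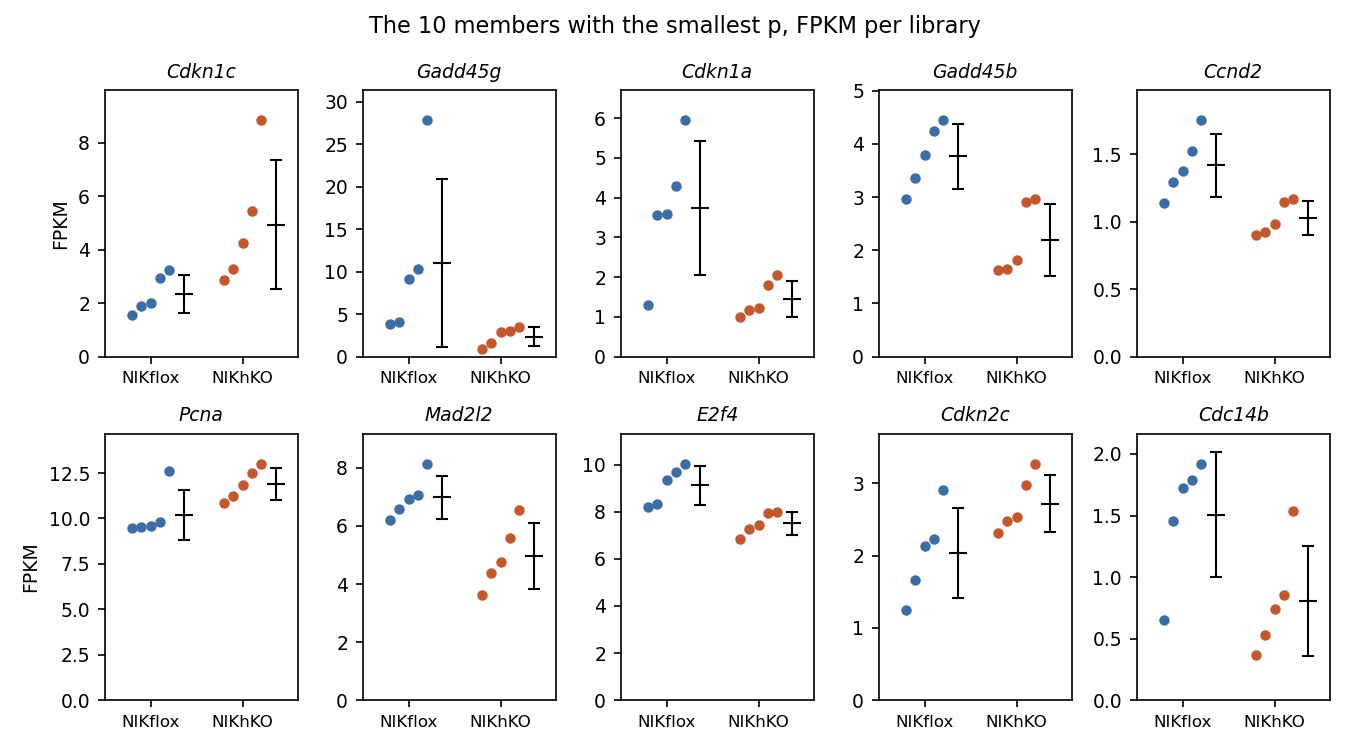
FPKM in each library (points; linear axes from 0) of the 10 members with the smallest edgeR p, for 5 NIKflox and 5 NIKhKO libraries, sorted by value within a genotype, with the genotype mean and SD beside them. Gadd45g has NIKflox 4 at 27.9 FPKM far above the other libraries, and the ranges do not overlap for Gadd45g, Gadd45b and E2f4.

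Genes of the DNA damage and stress response held the largest difference. Gadd45g, a stress-induced gene whose protein binds CDK1 and PCNA (ENSMUSG00000021453, chromosome 13, 51846678 to 51848468), read 3.81, 4.06, 9.10, 27.9 and 10.4 FPKM in NIKflox 1 to 5 and 2.97, 1.603, 3.48, 2.92 and 0.863 FPKM in NIKhKO 1 to 5. The ranges did not overlap, NIKflox 4 stood far above the rest, and NIKflox 1 and 2 lay close to NIKhKO 3. Fitted over all libraries, its log2 fold change was −2.11 (SE 0.55, edgeR adjusted p = 0.26, DESeq2 adjusted p = 0.036). Without NIKflox 4 it was −1.46, the smallest size over the 10 libraries left out.

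Gadd45b, a known NF-kB target of the same family (ENSMUSG00000015312, chromosome 10, 80930073 to 80932204), read 3.37, 3.78, 2.97, 4.24 and 4.45 FPKM in NIKflox 1 to 5 and 1.64, 1.82, 2.96, 2.90 and 1.63 FPKM in NIKhKO 1 to 5. NIKhKO 3 and 4 lay just under NIKflox 3, and the other NIKhKO libraries were much lower. Its log2 fold change was −0.70 (SE 0.23, edgeR adjusted p = 0.33). Gadd45a, the p53 target of the family, did not share this pattern, at 2.87 ± 0.636 and 3.01 ± 1.39 FPKM (SD, n = 5 per genotype) and an interval of −0.45 to 0.74. The promoters of Gadd45b and Gadd45g printed above each hold a CACGTG, which was found in 12 of 63 members searched. Cdk4, with a log2 fold change of −0.10, also holds it, and Ywhaq, whose ranges were apart, does not. A link between the motif and these levels was not tested.

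Trp53 itself read 4.67 ± 0.779 and 4.59 ± 0.471 FPKM, and Mdm2, the ligase that degrades p53, 3.63 ± 0.387 and 3.33 ± 0.346 FPKM (SD, n = 5 per genotype). Abl1, a damage-responsive tyrosine kinase, had a log2 fold change of 0.15 (SE 0.08). Of 17 tested p53 targets outside the members, 5 had positive fold changes (29.4%, background 48.2%), the median was −0.08 and edgeR called 0 (background 0.0236%). Fas, the death receptor, read 11.1 ± 2.17 and 8.59 ± 0.484 FPKM (SD, n = 5 per genotype; edgeR adjusted p = 0.46). Bbc3, which encodes PUMA, read 3.45 ± 0.860 and 4.42 ± 1.57 FPKM, and Ei24 28.5 ± 2.77 and 30.0 ± 1.86 FPKM (SD, n = 5 per genotype).

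Markers of some other cell types also differed in level between the groups, and edgeR called 0 of them. Summed Kupffer cell markers ran from 132 to 221 FPKM in NIKflox and from 147 to 221 FPKM in NIKhKO, with 0 of 8 at an unadjusted p below 0.05. Monocyte markers ran from 24.0 to 42.0 FPKM and from 24.1 to 36.1 FPKM. T and NK cell markers ran from 1.44 to 2.47 FPKM and from 1.70 to 2.34 FPKM. Summed cholangiocyte markers ran from 29.9 to 49.9 FPKM in NIKflox and from 16.7 to 30.2 FPKM in NIKhKO, with none of the 8 listed at 0. Of 5 tested, 0 were positive, and 3 (60.0%, background 5.14%) were lower at an unadjusted edgeR p below 0.05. DESeq2 called 1 (20.0%, background 1.63%). Stellate cell markers ran from 45.02 to 90.7 FPKM and from 36.9 to 52.7 FPKM, with 0 of 8 positive, a median log2 fold change of −0.32, and none at 0. B and plasma cell markers ran from 4.24 to 7.60 FPKM and from 6.82 to 16.4 FPKM, with none of the 8 listed at 0. Of 6 tested, 6 were higher in NIKhKO at an unadjusted edgeR p below 0.05 (100%, background 4.85%). DESeq2 called 2 of these B and plasma cell markers (33.3%, background 1.63%). The part of these cell type markers in the values of Cdkn1a, Cdkn1c, Gadd45b, Gadd45g and Ccnd2 was not tested. Without NIKflox 2 and 4 together, the log2 fold changes of Cdkn1a, Gadd45b and Gadd45g were −1.04, −0.66 and −1.64, that of Cdkn1c was 1.22 and that of Ccnd2 was −0.25.

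The retinoblastoma and E2F genes, the switch of G1, had 7 of 10 positive fold changes and a median of 0.06, and on the FPKM scale with limma 5 of 10. E2f4, an E2F that represses in resting cells (ENSMUSG00000014859, chromosome 8, 105297663 to 105305370), read 8.34, 9.67, 10.05, 9.37 and 8.19 FPKM in NIKflox 1 to 5 and 6.84, 7.96, 7.46, 8.001 and 7.28 FPKM in NIKhKO 1 to 5. The highest NIKhKO library lay just under the lowest NIKflox library. This gave a log2 fold change of −0.22 (SE 0.09, edgeR adjusted p = 0.44). Rbl2, which encodes the E2F4 partner p130, read 2.87 ± 0.286 and 2.995 ± 0.197 FPKM, and Rb1 0.657 ± 0.136 and 0.709 ± 0.112 FPKM (SD, n = 5 per genotype). E2f1, an activator of S phase genes, had an interval of −0.32 to 0.72. The other members of the group ran from −0.10 for E2f2 to 0.47 for E2f3, where NIKflox 2 (0.172 FPKM) stood below the other 9 libraries and without which the value was 0.19. With 1 library left out the group median ran from 0.034 to 0.101.

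Replication licensing genes, with the origin recognition complex, the MCM helicase and Pcna, had 7 of 12 positive fold changes and a median of 0.10. Pcna read 9.53, 12.6, 9.56, 9.80 and 9.46 FPKM in NIKflox 1 to 5 and 11.9, 13.0, 10.8, 11.2 and 12.5 FPKM in NIKhKO 1 to 5. Among the NIKflox libraries only NIKflox 2 reached the NIKhKO range, and the other 4 lay below it. The log2 fold change was 0.28 (SE 0.10, edgeR adjusted p = 0.38), and without NIKflox 2 it was 0.38 (adjusted p = 0.19). Mcm6 read 0.931, 2.06, 0.938, 1.06 and 1.04 FPKM in NIKflox 1 to 5 and 1.05, 1.81, 1.69, 0.859 and 2.16 FPKM in NIKhKO 1 to 5. NIKflox 2 was again the high library of its genotype and NIKhKO 4 the low one. Mcm5 read 0.205, 1.62, 0.456, 0.871 and 0.455 FPKM in NIKflox 1 to 5 and 1.0004, 1.18, 0.929, 0.286 and 1.06 FPKM in NIKhKO 1 to 5.

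The licensing median moved with single libraries. NIKflox 2 was the highest of the NIKflox libraries for 7 of 12 licensing genes, against 20.5% of all genes tested. Without it 8 of 12 fold changes were positive, with a median of 0.23 and 4 genes (33.3%, against 9.90% of all genes in that fit) at an unadjusted edgeR p below 0.05, where there was 1 gene with it. Without NIKhKO 5, in the other direction, 6 of 12 were positive and the median was −0.01. Without NIKflox 2 and 4 the median was 0.21, 9 of 12 were positive and 5 genes (41.7%, against 8.23% of all genes) had such a p. Because NIKflox 2 was high for many of these genes, leaving it out by itself raises their fold changes. The shares without it therefore cannot show a difference between the genotypes. No licensing gene was called in the fits without NIKflox 2 or without NIKflox 2 and 4. The fold changes of the 5 ORC genes ran from −0.16 for Orc4 to 0.02 for Orc3.

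Ccnb2 and Cdc20, 2 mitotic genes, had the widest spread of the members between libraries of the same genotype. Ccnb2 read 0.266, 2.09, 0.645, 0.173 and 0.706 FPKM in NIKflox 1 to 5 and 0.641, 1.44, 0.969, 0.0402 and 1.304 FPKM in NIKhKO 1 to 5. Cdc20, the activator of the anaphase-promoting complex, read 0.394, 2.11, 0.415, 0.397 and 0.461 FPKM in NIKflox 1 to 5 and 1.04, 1.99, 1.01, 0.185 and 1.88 FPKM in NIKhKO 1 to 5. For both genes NIKflox 2 and NIKhKO 2 and 5 were high, and NIKhKO 4 was the lowest of the 10. The SD of log2 library-scaled counts within genotypes was 1.62 for Ccnb2 and 1.20 for Cdc20, against a median of 0.23 over the members. Role medians ran from 0.11 for the 14-3-3 genes to 0.63 for the enzymes of CDK phosphorylation. CDK inhibitors had 0.51, licensing genes 0.33, the anaphase-promoting complex 0.20, cohesin 0.19 and the spindle checkpoint 0.17. Ccnb2 had a log2 fold change of 0.22 (SE 0.77), which was 1.02 without NIKflox 2 and ran down to −0.03 with another library left out, and Cdc20 had one of 0.73 (SE 0.64). Without NIKflox 2 that of Cdc20 was 1.604 (edgeR adjusted p = 0.38), over 1.5 times as large.

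The genes of the term under the threshold, and proliferation genes outside the term, were also high in NIKflox 2. Among the 36 genes under the threshold that had a count in any library, NIKflox 2 was the highest NIKflox library for 24 (66.7%), and NIKhKO 4 the lowest NIKhKO library for 14 (38.9%, against 20.3% of all genes tested). NIKhKO 5 was the highest NIKhKO library for 17 of them (47.2%) and for 15 of 45 proliferation genes (33.3%), against 12.1% of all genes tested. In a list of 45 proliferation genes, NIKflox 2 was the highest NIKflox library for 35 (77.8%) and NIKhKO 4 the lowest NIKhKO library for 27 (60.0%). Mki67, a general marker of cycling cells, read 0.322, 0.980, 0.207, 0.152 and 0.134 FPKM in NIKflox 1 to 5 and 0.292, 0.446, 0.337, 0.0452 and 0.400 FPKM in NIKhKO 1 to 5. The means were 0.359 ± 0.355 and 0.304 ± 0.156 FPKM (SD, n = 5 per genotype; exact permutation p = 0.87, adjusted p = 0.87 over 4 genes). Without NIKflox 2 the order of the means was reversed. NIKflox 2 is also the library with the high adipose and stellate markers given above, and their part in its proliferation genes was not tested.

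**Figure D5:**
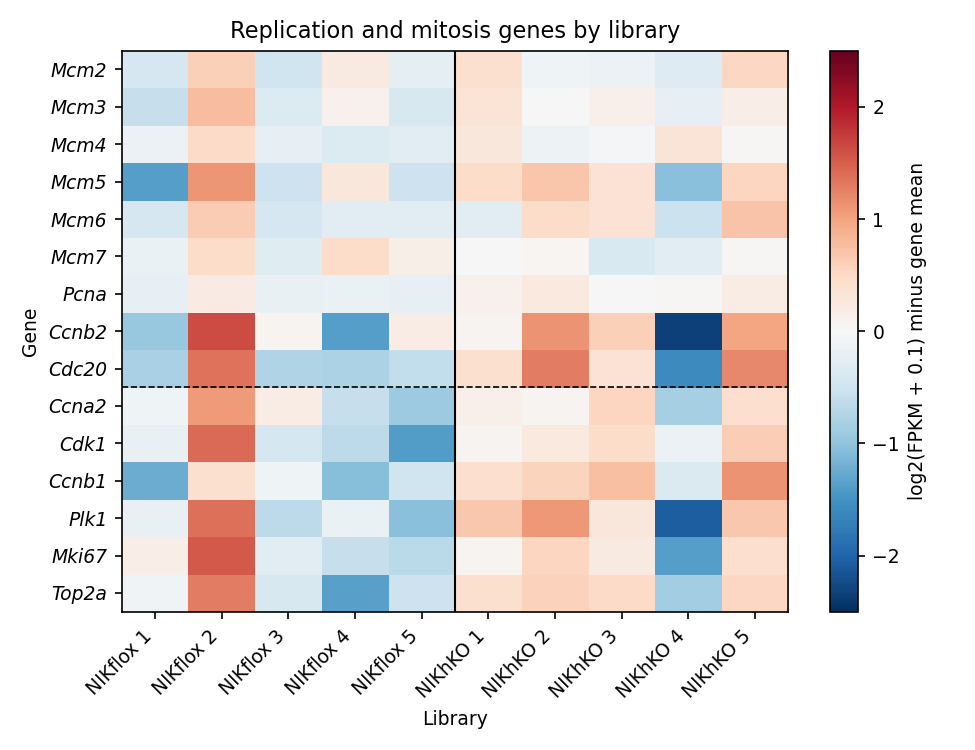
Levels of 15 replication and mitosis genes in each library, as log2(FPKM + 0.1) minus the mean of the gene over 10 libraries (colour), with NIKflox libraries left and NIKhKO libraries right of the solid line and members above the dashed line. The choice of genes was made with their values in view, and for most of the genes NIKflox 2 is high and NIKhKO 4 low within its genotype, with Mcm4 an exception in NIKhKO 4.

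Of 21 proliferation genes tested, 17 had positive fold changes, with a median of 0.16, and edgeR called 0. Gmnn, the inhibitor of licensing, read 2.83 ± 0.317 and 3.58 ± 0.641 FPKM, and Ccnf, the F-box cyclin, 1.73 ± 0.400 and 0.807 ± 0.470 FPKM (SD, n = 5 per genotype; edgeR adjusted p = 0.37 and 0.38). Rrm2, the ribonucleotide reductase subunit of S phase, read 2.61 FPKM in NIKflox 2 and 0.541 to 0.926 FPKM in the others. Of 3 tested genes of hepatocyte polyploidy, E2f8, an atypical E2F that represses S phase genes, read 0.887, 1.54, 0.389, 1.07 and 0.679 FPKM in NIKflox 1 to 5 and 0.310, 0.218, 0.381, 0.362 and 0.210 FPKM in NIKhKO 1 to 5. The ranges did not overlap, though NIKflox 3 and NIKhKO 3 almost met (log2 fold change −1.56, SE 0.35, edgeR adjusted p = 0.23, DESeq2 adjusted p = 0.0030). Lats1 and Lats2, kinases of the Hippo pathway, had fold changes of 0.14 (SE 0.28) and −0.07 (SE 0.11).

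The anaphase-promoting complex had positive fold changes for 11 of 14 members, with a median of 0.08, and on the FPKM scale with limma for 8. Without NIKhKO 1, the highest of the 10 libraries for 5 of these genes, 8 of 14 were positive and the median was 0.0069. Anapc13, a small subunit with the highest level, read 15.1 ± 1.28 and 15.4 ± 3.17 FPKM, and Anapc1, the scaffold, 1.42 ± 0.0600 and 1.26 ± 0.0990 FPKM (SD, n = 5 per genotype). Apart from Cdc20, fold changes of the complex ran from −0.10 for Anapc1 to 0.24 for Cdc27. The 6 cohesin genes, which hold sister chromatids together, ran from −0.05 for Smc1a to 0.19 for Pttg1, the securin gene, and the ring subunit Rad21 read 9.60 ± 1.22 and 9.84 ± 0.9999 FPKM (SD, n = 5 per genotype). Of the spindle checkpoint genes, Mad2l2 read 8.15, 6.93, 6.21, 6.58 and 7.05 FPKM in NIKflox 1 to 5 and 6.55, 4.37, 4.76, 5.59 and 3.61 FPKM in NIKhKO 1 to 5. Only NIKhKO 1 reached the NIKflox range, and the log2 fold change was −0.43 (SE 0.16, edgeR adjusted p = 0.39). Mad2l2 belongs to the term, and its protein is also a subunit of a translesion DNA polymerase. Mad1l1 and Bub3, of the checkpoint itself, had fold changes of 0.09 (SE 0.12) and 0.02 (SE 0.08).

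The 6 genes for 14-3-3 proteins, which hold phosphorylated CDC25 and other partners, had 0 positive fold changes and a median of −0.03. Their signs depended on single libraries, since 4 of 6 were positive without NIKflox 2 and 4, and voom with sample weights gave 3. Ywhaq read 18.2, 18.3, 17.9, 22.9 and 17.8 FPKM in NIKflox 1 to 5 and 16.8, 16.9, 17.3, 15.6 and 16.7 FPKM in NIKhKO 1 to 5. The ranges were apart by a small gap and NIKflox 4 stood high, with a log2 fold change of −0.12 (SE 0.08, edgeR adjusted p = 0.69). The pseudogene Ywhaq-ps3 was listed at a mean of 12.1 FPKM and may share reads with Ywhaq, which makes this level uncertain. Ywhag read 18.8 ± 5.56 and 12.2 ± 5.27 FPKM (SD, n = 5 per genotype; log2 fold change −0.54, SE 0.31, edgeR adjusted p = 0.62).

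Growth and co-activator genes had 3 of 5 positive fold changes. Myc, the growth factor-induced activator, read 0.877, 1.23, 0.671, 1.96 and 0.645 FPKM in NIKflox 1 to 5 and 0.631, 0.788, 1.20, 0.853 and 0.582 FPKM in NIKhKO 1 to 5. NIKflox 4 was the high library, and the log2 fold change of −0.32 (SE 0.33) lay between −0.53 and −0.02 with 1 library left out. Gsk3b, a kinase that marks cyclin D1 and Myc for destruction, read 1.77 ± 0.843 and 2.36 ± 0.368 FPKM, and Crebbp, a histone acetyltransferase, 1.305 ± 0.190 and 1.45 ± 0.215 FPKM (SD, n = 5 per genotype). For Gsk3b, NIKflox 1 was the lowest library at 0.439 FPKM. The Gsk3b log2 fold change of 0.49 (SE 0.35) lay between 0.25 and 0.73 with 1 library left out. The Smad genes, which carry the growth-arresting TGF-beta signal, had fold changes of 0.17 (Smad3, SE 0.10), 0.10 (Smad2, SE 0.11) and −0.00 (Smad4, SE 0.11).

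Of 11 tested mitogen and immediate early genes that act before the cyclins, 3 had positive fold changes (27.3%, background 48.2%), with a median of −0.20. At an unadjusted edgeR p below 0.05, 3 were lower in NIKhKO (27.3%, background 5.14%) and 0 higher (background 4.85%). From this list edgeR called 0 and DESeq2 called 1 (9.09%, background 1.63%). FPKM ranges were apart for 1, lower in NIKhKO (9.09%, background 1.59%). Fos, an early gene of growth factor signals, read 0.511, 1.65, 0.792, 0.414 and 0.771 FPKM in NIKflox 1 to 5 and 0.398, 0.544, 0.0964, 0.111 and 0.382 FPKM in NIKhKO 1 to 5. NIKflox 2 was high and NIKhKO 3 and 4 were low, with a log2 fold change of −1.36 (SE 0.52, edgeR adjusted p = 0.41). Ier2, another early gene, read 13.9 ± 5.198 and 9.09 ± 1.39 FPKM (SD, n = 5 per genotype; edgeR adjusted p = 0.47). Egfr, the EGF receptor, had a log2 fold change of −1.34 (SE 0.29, edgeR adjusted p = 0.22).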

How the data were processed

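RNA-seq of 5 NIKflox and 5 NIKhKO livers was read from 1 deposited table of genes. Its FPKM values are the authors' own, per the file headers, and its estimated counts, also per the file headers, are whole numbers that are not normalized. Tools listed in the submitters' processing notes are StringTie 1.3.4d, HISAT2 2.0.4, cutadapt 1.9 and edgeR (no version), in no stated order. The notes name hg38, but the identifiers are mouse, all 81 members are in GENCODE M21 of GRCm38 and 66 have the same start and end there, so coordinates are read as GRCm38. Low counts pile up at multiples of 4 (on average 907 genes per library at 4, 330.5 at 3 and 175.8 at 5), so 1 count is not 1 read and totals are not numbers of fragments. A count of 0 is listed at an FPKM of 1e-04. Whether counting used strand, and how reads shared between copies were split, is not stated for these data.

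Genes with a mean of at least 0.5 FPKM, and Map3k14, were tested on the deposited counts with edgeR 4.0.16 in R 4.3.3 (quasi-likelihood test, TMM, two-sided, Benjamini-Hochberg over 12731 genes, call at 0.05). The standard error is the log2 fold change over the square root of F, and approximate 95% intervals are the normal ones from it. Exact permutation tests of mean FPKM for Map3k14, Ccnd1, Cdkn1a and Mki67 used scipy 1.17.1. The code was tested on simulated data. Alternatives (22) were DESeq2 1.42.0, limma 3.58.1 on log2(FPKM + 1) and log2(FPKM + 0.1), RLE factors, voom with sample weights, robust shrinkage, counts divided by 4, 3 filters, the replicate number as a block and leaving out libraries.

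Named genes were Map3k14, Ccnd1, Cdkn1a and Mki67, members called or with ranges apart, the 15 with the smallest p, the highest and the 2 of smallest p in each of 13 roles, 3 on each side of the threshold, and the 3 of smallest p in each further list. Others, such as Mcm5, Ccnb2, E2f1, E2f3, Cdk2, Myc, Trp53 and Gadd45a, were chosen after their values were seen. Members, lists and tests were chosen with earlier results of these data known.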

Additional observations from a re-analysis of the deposited data

Results flagged for a closer look

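Single libraries stood apart from the other 4 of their genotype in 19 of 202 groups examined, the 2 genotypes of each member and of each other named gene. The measure was the gap from the highest or lowest library to its neighbour, divided by the range, above the 95% limit for 5 values (0.71). For independent, normally distributed values such a gap arises in about 1 of 20 groups. These FPKM values need not be normal and the groups share the same 10 libraries, so the number flagged cannot be set against that share.

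NIKflox 2 was the high library for Mki67 (0.980 FPKM, the others at most 0.322), Pcna (12.6, the others at most 9.80), Cdc20 (2.11, at most 0.461), Ccnb2 (2.09, at most 0.706), Mcm6 (2.06, at most 1.06), Mcm4 (1.85, at most 1.18) and Rrm2 (2.61, at most 0.789), and the low one for E2f3 (0.172, the others at least 1.12). NIKflox 4 was the high library for Map3k14 (0.899, the others at most 0.585), Gadd45g (27.9, at most 10.4), Ywhaq (22.9, at most 18.3), Ccnd3 (5.64, at most 4.17) and Anapc2 (14.7, at most 11.2). NIKflox 1 was low for Lats2 (1.51, the others at least 1.84), and NIKflox 3 was high for Dbp (3.68, the others at most 1.27). Among NIKhKO libraries, NIKhKO 2 was high for Smad2 (1.97, the others at most 1.56) and Gmnn (4.70, at most 3.45), NIKhKO 1 was low for Ep300 (1.33, the others at least 1.64), and NIKhKO 4 was low for Mcm5 (0.286, the others at least 0.929). Of the 19, 13 came from NIKflox 2 or NIKflox 4, the libraries with heart muscle transcripts. Among all genes tested, NIKflox 4 was the highest NIKflox library for 33.9% and NIKflox 2 for 20.5%. The part of heart muscle transcripts in these values was not tested.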

How the results depend on the processing

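Over 22 alternatives, 0 members were called except with DESeq2, which called 3. All genes called (3 in the main test) numbered 207 with DESeq2, 0 with limma on log2(FPKM + 1) and on log2(FPKM + 0.1), 6 with robust shrinkage, 5 with voom and sample weights, 1 without NIKflox 2 and 4, and 0 to 24 over the single libraries left out (24 without NIKhKO 4, 0 without any of 8 others). Members with ranges apart (4) numbered 4 to 7 with 1 library left out (7, or 8.64%, without NIKflox 2, against 3.82% of all genes), and 10 (12.3%, against 5.91%) without NIKflox 2 and 4, where fewer libraries can only keep or raise the count. The replicate number as a block gave 2 called genes, 0 called members and 9 members at an unadjusted p below 0.05, while equal numbers did not pair the libraries (correlations of deviations from −0.25 to 0.051, none the best match of its own number). The retinoblastoma and E2F median was −0.00070 and 0.00093 with limma at pseudocounts of 0.1 and 1. Signs turned for log2 fold changes near 0. Smad4 (−0.0032) was 0.0038 with DESeq2, 0.0034 with RLE factors, 0.0089 with filterByExpr, 0.0030 at a mean FPKM of 1, 0.0057 with no filter and −0.058 to 0.044 with 1 library left out. Ywhae was 0.033 and Zbtb17 0.0059 without NIKflox 2 and 4. With 1 library left out, Zbtb17 ran from −0.12 to 0.055, Anapc10 from −0.011 to 0.27, Ccnd1 from −0.25 to 0.011, E2f2 from −0.43 to 0.20 and Lats1 from −0.066 to 0.28. The Mki67 difference of means (−0.055 FPKM) ran from −0.111 to 0.1002 FPKM, and was 0.083 FPKM without NIKflox 2 and 4. The exact permutation p of Map3k14 was the smallest possible each time, 0.016 with 1 library left out and 0.036 without NIKflox 2 and 4, so its adjusted values of 0.032 to 0.063 and 0.14 say nothing of stability. For Cdkn1a the adjusted p was 0.21 without NIKflox 2 and 4. Counts that are not single reads limit the precision of members near 0.5 FPKM.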
